A study of Homo sapiens with 12 samples.

Results

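Long noncoding RNAs named as antisense to a gene or as long intergenic RNAs were followed in 2 human acute myeloid leukaemia cell lines treated with ASLAN003. A row of the expression table was a member if its symbol was LINC with a number, or ended in -AS with a number, and if its level reached 1 FPKM in at least 3 of the 12 libraries. FPKM is the number of fragments scaled by transcript length and by library size. The table lists 13881 genes, of which 321 carry such a name, and 297 of those met the rule (85 with a LINC name and 212 with an -AS name). The other 24 stayed below it. The symbols ASMTL-AS1 and LINC00106 stand in the table for both the X and the Y copy, so the members carry 295 distinct symbols. The members were thus chosen by name and by the FPKM values described below, so the presence of the members is not a result. Just inside the rule, the third-highest library held 1.01 FPKM for CCDC183-AS1, 1.04 FPKM for LINC00957 and 1.12 FPKM for RALY-AS1. Just outside it were USP3-AS1 at 0.98 FPKM, and NFYC-AS1 and TMEM9B-AS1 at 0.96 FPKM each.

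The 4 groups were KG-1 cells with ASLAN003, KG-1 cells with DMSO, MOLM-14 cells with ASLAN003 and MOLM-14 cells with DMSO, with 3 libraries in each. Both lines were kept in RPMI medium with 10% serum, and the exposure lasted 96 h in every group. ASLAN003 is an inhibitor of dihydroorotate dehydrogenase, the mitochondrial enzyme of pyrimidine synthesis, and DMSO is its solvent. The labels state no dose. They do not say that the 3 libraries of a group came from separate cultures, so the p-values reflect library-to-library spread that may be technical.

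Antisense RNAs are read from the strand opposite to another gene, often from a start site shared with it, and many act on or near that gene. Intergenic RNAs lie between genes, and some act in trans as scaffolds, as decoys for proteins or microRNAs, or as hosts of small nucleolar RNAs. A few loci first named as noncoding were later found to encode short proteins. Levels of such RNAs are usually low and often restricted to a cell type, blood cells among them.

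Markers were checked against the labels first. All 10 myeloid leukaemia markers were listed, and 9 passed the level filter. Integrin alpha M (ITGAM) was higher with ASLAN003 in both lines, at 148 ± 19.97 against 8.49 ± 0.991 FPKM with DMSO in KG-1 and at 20.4 ± 7.18 against 3.63 ± 1.07 FPKM with DMSO in MOLM-14 (SD, n = 3). Over the whole list, 6 markers rose and 1 fell in KG-1, and 3 rose and 1 fell in MOLM-14. Of all genes 33.7% were called in KG-1 and 13.0% in MOLM-14 (limma adjusted p under 0.05). The list's median change was 0.98 in KG-1 and 0.48 in MOLM-14 on the log2 scale. Its summed level, in which abundant markers weigh most, was 1463 to 1546 FPKM with ASLAN003 and 478 to 516 FPKM with DMSO in KG-1. In MOLM-14 the sum was 3250.0 to 4537 FPKM with ASLAN003 and 1000 to 1038 FPKM with DMSO. The part of these markers in the changes below was not tested. The stem cell marker CD34, for which KG-1 is known, reached at most 0.17 FPKM in any library. FGFR1, the receptor gene rearranged in KG-1, was at 4.24 ± 0.215 FPKM in KG-1 with DMSO and at 58.2 ± 6.17 FPKM in MOLM-14 with DMSO. The KG-1 libraries did not show these markers of their labelled line. HOXA9, MEIS1 and FLT3, fixed for MOLM-14, were each higher in that line. With ASLAN003 all 3 rose in KG-1, where their summed level was 55.1 to 56.4 FPKM with ASLAN003 and 30.4 to 36.0 FPKM with DMSO. The calls of HOXA9 and MEIS1 there were lost without some of the KG-1 libraries (adjusted p = 0.0542 to 0.141), and that of FLT3 was not. None of the 3 was called with ASLAN003 in MOLM-14, where 1 had an unadjusted p under 0.05. The part of these markers in the changes below was likewise not tested. Of 13 markers of T, B, red, epithelial and connective tissue cells, 9 were not listed and CD3D reached at most 0.22 FPKM. None of the other 3 changed in KG-1, and KRT18 fell in MOLM-14 by 0.63 on the log2 scale. The summed level of the 4 listed ones was 12.4 to 15.3 FPKM with ASLAN003 and 11.2 to 13.4 FPKM with DMSO in KG-1, and 20.3 to 24.7 FPKM with ASLAN003 and 29.7 to 33.2 FPKM with DMSO in MOLM-14, and its part in the results was not tested.

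The MOLM-14 libraries with ASLAN003 stood apart from one another. On the second principal component replicate 1 lay at -36.2, against -14.6 and -9.37 for replicates 2 and 3, and on the third component replicate 2 lay at -42.7, against -8.39 and -2.78 for replicates 1 and 3. The median SD of a gene was 0.27 on the log2 scale in that group, against 0.13 to 0.18 in the other 3 groups. Mitochondrial ribosomal RNA held 0.185% to 0.324% of the listed FPKM in KG-1 with ASLAN003 and 0.0972% to 0.111% in KG-1 with DMSO, and 0.248% to 0.325% in MOLM-14 with ASLAN003 and 0.227% to 0.291% in MOLM-14 with DMSO. Summed listed FPKM was 674153 to 691773 in KG-1 with ASLAN003 and 754157 to 778674 in KG-1 with DMSO, and 738331 to 809009 in MOLM-14 with ASLAN003 and 831135 to 845458 in MOLM-14 with DMSO. The splits of calls under other scalings are given beside each count. Depth estimated from the steps of the low values was 17600000 to 18860000 fragments per library. The sources used here do not state strand use in the authors' counting, so fragments from an antisense RNA and from an overlapping partner may not have been told apart, although the library kit keeps strand.

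The members were scarce. The median of their mean levels was 3.41 FPKM, against 13.6 FPKM over all 13353 genes that passed the level filter. Of the 297 members, 246 averaged under 10 FPKM and 140 reached 1 FPKM in all 12 libraries. LRRC75A-AS1 was the only member with a mean over all 12 libraries of at least 100 FPKM, at 1068 FPKM, and the lowest such mean was 0.456 FPKM. GENCODE classed 151 members as antisense, 73 as lincRNA, 39 as processed transcript and 10 as protein coding. Of the whole summed FPKM of the table, members held 0.357% to 0.371% in KG-1 with ASLAN003 and 0.383% to 0.395% in KG-1 with DMSO. The shares were 0.391% to 0.415% in MOLM-14 with ASLAN003 and 0.438% to 0.449% in MOLM-14 with DMSO. Without LRRC75A-AS1 the order turned round: 0.301% to 0.310% with ASLAN003 and 0.257% to 0.270% with DMSO in KG-1, and 0.246% to 0.309% with ASLAN003 and 0.211% to 0.223% with DMSO in MOLM-14. In both lines these ranges of shares did not overlap, but the listed FPKM they are divided by was lower with ASLAN003. The summed level without LRRC75A-AS1 overlapped in KG-1, at 2052 to 2142 FPKM with ASLAN003 and 2004 to 2069 FPKM with DMSO. In MOLM-14 it did not overlap, at 1913 to 2282 FPKM with ASLAN003 and 1780 to 1852 FPKM with DMSO.

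The first comparison asked which of these RNAs changed with the compound in KG-1 cells. Changes were tested with limma on log2(FPKM + 1), a scale that understates changes of low genes. Of the members, 58 of 297 were called, meaning an adjusted p under 0.05, or 19.5%, while 33.7% of all genes were called. The calls were 31 higher (19.4% of all genes were called higher) and 27 lower (14.3% of all genes). In bulk samples like these, fewer cells of a type and less RNA per cell cannot be told apart. Among antisense members 18 rose and 23 fell, and among LINC members 13 rose and 4 fell. The members' median change was 0.02 on the log2 scale, beside 0.05 over all genes. It was -0.04 for antisense and 0.20 for LINC members. The groups did not overlap for 127 members, or 42.8%, against 55.9% of all genes. Calls by level were as follows: of members averaging under 10 FPKM 17.5% were called, against 24.4% of all genes at that level, and of members at 10 FPKM or more 29.4%, against 40.4% of all genes. The split of directions depended on scaling: it was 19 higher and 42 lower with library medians set equal, 24 and 49 with quantiles made equal, and 43 and 21 when FPKM was recomputed leaving out genes of mitochondria, ribosomal RNA, small RNAs and histones. Over all genes the median change became -0.07, -0.05 and 0.19. Fitting KG-1 alone called 104 members, which included all 58, while 37 were called without KG-1 DMSO 1 and 38 without KG-1 DMSO 2. Below, libraries are named where a member's call was lost without them. Losses under the other alternatives, scalings among them, are not named for every member.

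The largest rises in KG-1 were those of CYP1B1-AS1 and ITGB2-AS1. CYP1B1-AS1, antisense to a cytochrome P450 gene on chromosome 2 (38073447 to 38231651 in GRCh38), was at 7.77, 10.4 and 6.76 FPKM with ASLAN003 and at 0.45, 1.23 and 1.51 FPKM with DMSO. Every treated library lay above every DMSO library, and the rise was 2.19 ± 0.48 (SE) on the log2 scale with an adjusted p of 0.0038. With a pseudocount of 0.1 the call was lost (adjusted p = 0.0812, and 5.68e-05 to 0.0812 over all alternatives). ITGB2-AS1 starts inside ITGB2, the gene of the integrin beta 2 chain of white blood cells, and rose by 2.12 ± 0.26 (adjusted p = 4.62e-05).

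PCED1B-AS1, on chromosome 12, was at 4.32, 5.96 and 3.82 FPKM in KG-1 with ASLAN003 and at 0.93, 0.44 and 1.11 FPKM in KG-1 with DMSO. It rose by 1.64 ± 0.29 (adjusted p = 0.000816), with no overlap between the groups. TNRC6C-AS1, which RefSeq lists as a synonym of the membrane channel gene TMC6, rose by 1.48 ± 0.15 (adjusted p = 1.35e-05) and averaged 15.5 ± 1.31 FPKM with ASLAN003 and 4.94 ± 0.465 FPKM with DMSO. SH3BP5-AS1 was at 3.31, 3.17 and 3.34 FPKM with ASLAN003 and at 0.92, 0.44 and 0.45 FPKM with DMSO, a rise of 1.43 ± 0.32 (adjusted p = 0.00451). These 3 RNAs kept their calls under every alternative.

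LINC00888, which RefSeq names as the small nucleolar RNA host gene SNHG33, was the most abundant of the remaining large risers. It was at 38.1, 35.7 and 29.7 FPKM with ASLAN003 and at 13.1, 13.8 and 16.5 FPKM with DMSO in KG-1, a rise of 1.19 ± 0.21 (adjusted p = 0.000855). CARD8-AS1, next to the inflammasome gene CARD8, rose by 1.14 ± 0.19 (adjusted p = 0.000634) and ZNF528-AS1, next to a zinc finger gene, by 1.20 ± 0.28 (adjusted p = 0.0053). LINC01268, named MROCKI by RefSeq, averaged 6.51 ± 1.17 FPKM with ASLAN003 and 2.08 ± 0.471 FPKM with DMSO and rose by 1.28 ± 0.27 (adjusted p = 0.00259). Its call was lost with a pseudocount of 0.1 (adjusted p = 0.0905, and 3.83e-05 to 0.0905 over all alternatives). PRR7-AS1 rose by 1.32 ± 0.40 (adjusted p = 0.0234), and its groups did not overlap, at 7.84, 3.48 and 4.93 FPKM with ASLAN003 and 3.00, 1.21 and 0.70 FPKM with DMSO. It was not called without KG-1 ASLAN003 1 or 3 or KG-1 DMSO 2 or 3 (adjusted p = 0.0544 to 0.103), nor with a pseudocount of 0.1 (adjusted p = 0.214, and 0.00219 to 0.214 over all alternatives).

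The falls in KG-1 were led by LINC00894, VPS9D1-AS1 and LINC01237. LINC00894, named EOLA2-DT by RefSeq and lying on chromosome X, was at 0.69, 0.22 and 0.59 FPKM with ASLAN003 and at 1.98, 5.21 and 4.13 FPKM with DMSO. All treated libraries lay below all DMSO libraries, and the fall was -1.62 ± 0.32 (adjusted p = 0.00176). VPS9D1-AS1, also known as MYU and described in colon cancer cells as a target of MYC, was at 1.89, 1.76 and 2.54 FPKM with ASLAN003 and at 7.35, 10.8 and 7.14 FPKM with DMSO. It fell by 1.61 ± 0.19 on the log2 scale (adjusted p = 3.78e-05), again with separate groups.

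Of 5 members with small nucleolar RNA genes inside them, 2 fell and 1 rose in KG-1, where 33.7% of all genes were called. LRRC75A-AS1, which RefSeq names SNHG29 and within which SNORD49A, SNORD49B and SNORD65 lie, fell by 1.28 ± 0.14 (adjusted p = 1.69e-05). EPB41L4A-AS1, which holds SNORA13, was at 12.2, 15.7 and 13.4 FPKM in KG-1 with ASLAN003 and at 28.2, 31.2 and 31.4 FPKM in KG-1 with DMSO, a fall of -1.09 ± 0.15 (adjusted p = 0.000134). LINC00888, the one that rose, holds SNORA63D, and TMEM161B-AS1 and UBA6-AS1 were not called.

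Of the 12 most abundant members, which averaged 36.2 FPKM or more over all libraries, 3 fell and 2 rose in KG-1, beside 40.4% of all genes at 10 FPKM or more called. The falls were those of LRRC75A-AS1, EPB41L4A-AS1 and CCDC144NL-AS1. CCDC144NL-AS1, on chromosome 17, was at 36.1, 30.4 and 39.6 FPKM in KG-1 with ASLAN003 and at 59.7, 62.9 and 63.4 FPKM in KG-1 with DMSO. The groups were separate, and the change was -0.80 ± 0.15 (adjusted p = 0.0012). LINC00869, classed by GENCODE as a transcribed pseudogene, so that its reads may be shared with near copies, was at 48.7, 51.9 and 47.2 FPKM with ASLAN003 and at 34.5, 39.3 and 35.0 FPKM with DMSO. Its rise of 0.43 ± 0.13 (adjusted p = 0.0215) was not called without KG-1 ASLAN003 1 or 2 or KG-1 DMSO 1 or 3 (adjusted p = 0.0549 to 0.0781), nor with library medians set equal (adjusted p = 0.0776, and 0.00114 to 0.0781 over all alternatives). The other riser was LINC00657, described with the known RNAs.

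Other named falls were LINC01515 by 1.26 ± 0.27 (adjusted p = 0.00295), PRKCQ-AS1 by 1.13 ± 0.22 (adjusted p = 0.00178) and TFAP2A-AS1 by 1.07 ± 0.20 (adjusted p = 0.00108). Calls of 3 more were lost when certain libraries were left out, 1 at a time.
LINC01237 averaged 1.42 ± 0.728 FPKM with ASLAN003 and 6.11 ± 1.92 FPKM with DMSO and fell by 1.56 ± 0.48 (adjusted p = 0.0245), but was not called without KG-1 ASLAN003 1 or 2 or KG-1 DMSO 1 or 2 (adjusted p = 0.0559 to 0.0984, and 0.000321 to 0.0984 over all alternatives). FOXP4-AS1 averaged 2.87 ± 1.30 FPKM with ASLAN003 and 8.31 ± 1.86 FPKM with DMSO and fell by 1.30 ± 0.37 (adjusted p = 0.0172), and the same 4 omissions ended its call (adjusted p = 0.0552 to 0.075, and 5.89e-05 to 0.075 over all alternatives). TIPARP-AS1 was at 1.67, 0 and 0.97 FPKM with ASLAN003 and at 3.65, 2.13 and 2.58 FPKM with DMSO, a fall of -1.10 ± 0.37 (adjusted p = 0.0376). Without KG-1 ASLAN003 2 the change was -0.70, and the call was lost without KG-1 ASLAN003 2 or 3 or without any KG-1 DMSO library (adjusted p = 0.0554 to 0.165, and 0.014 to 0.165 over all alternatives).

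**Figure D1:**
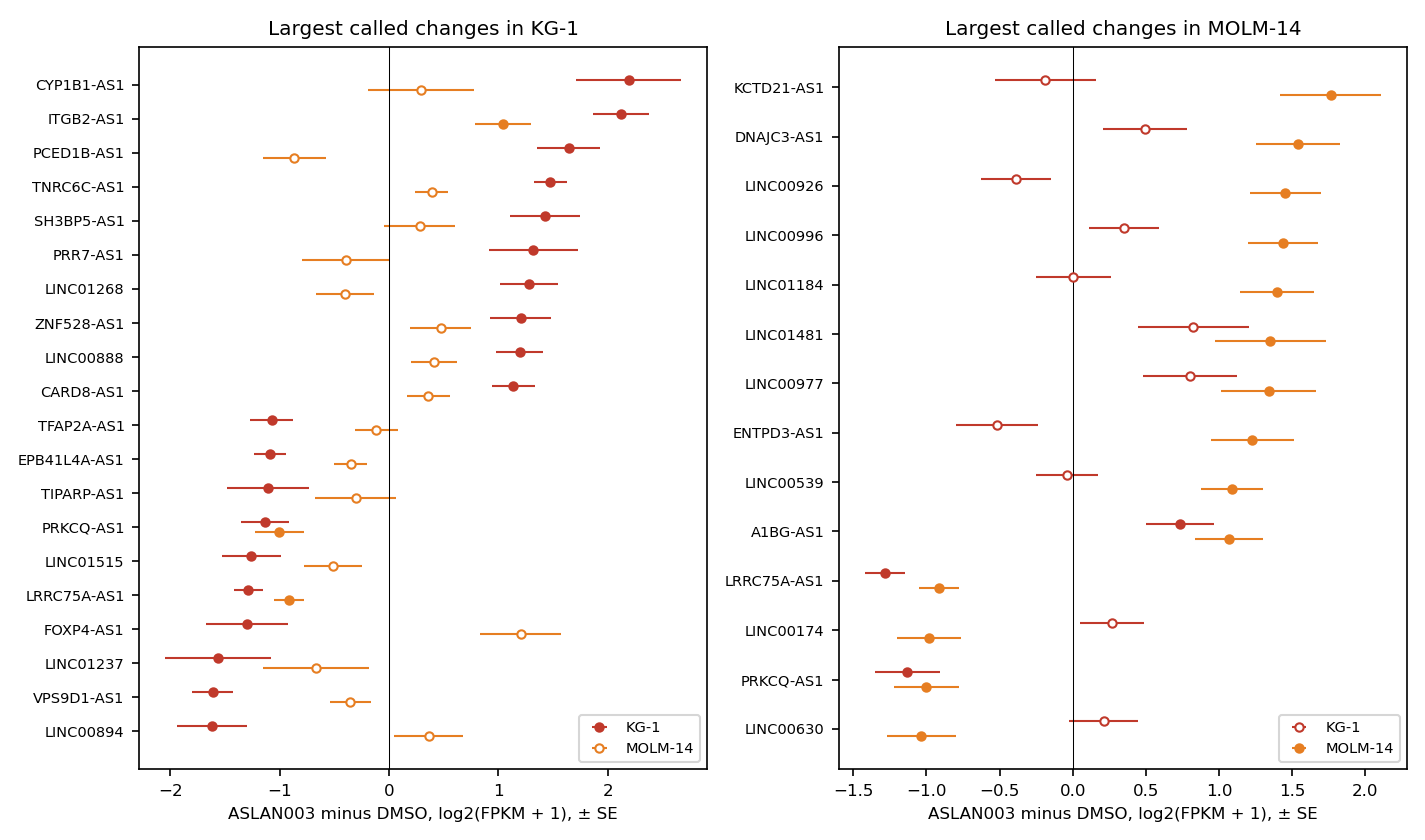
Log2 changes (ASLAN003 minus DMSO, on log2(FPKM + 1), horizontal axis) with their standard errors for the named members, with KG-1 red and MOLM-14 orange; filled points were called. The left panel holds the 20 largest called in KG-1, from 2.19 for CYP1B1-AS1 to -1.62 for LINC00894, and the right panel the 14 in MOLM-14, from 1.76 for KCTD21-AS1 to -1.03 for LINC00630.

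In MOLM-14 23 of 297 were called, or 7.74%, beside 13.0% of all genes, with 19 higher (9.69% of all genes) and 4 lower (3.33% of all genes). The median change of the members was 0.08, equal at that precision to the 0.08 over all genes. The groups did not overlap for 53 members (25.9% of all genes). Of members under 10 FPKM 6.5% were called, against 8.5% of all genes at that level, and of the others 13.7% against 16.3%. The split was 15 higher and 8 lower with library medians set equal, 16 and 6 with quantiles made equal and 29 and 4 with FPKM recomputed. Without MOLM-14 ASLAN003 1, 22 members were called (17 of them among the 23) and the median of the members was 0.00, and without MOLM-14 ASLAN003 2, 27 were called (19 of the 23). Without MOLM-14 DMSO 2, 15 were called. Fitted alone, with the spread of its own 6 libraries only, MOLM-14 kept 5 of the 23 calls, for LINC00926, LINC00996, LRRC75A-AS1, SATB1-AS1 and TTN-AS1. The adjusted p-values below use the spread shared by all 12 libraries.

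The calls that held in MOLM-14 alone included 2 intergenic RNAs. LINC00926, an intergenic RNA on chromosome 15 (57300365 to 57307769), was at 103, 59.0 and 50.5 FPKM with ASLAN003 and at 32.4, 21.6 and 19.7 FPKM with DMSO. All treated libraries lay above all DMSO libraries, though replicate 1 was far above the others of its group, and the rise was 1.45 ± 0.24 (adjusted p = 0.00256). LINC00996 was at 8.59, 11.5 and 9.41 FPKM with ASLAN003 and at 2.86, 3.99 and 2.26 FPKM with DMSO, a rise of 1.44 ± 0.24 (adjusted p = 0.00259).

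Of the called members KCTD21-AS1 rose most, by 1.76 ± 0.34 (adjusted p = 0.00595). It was at 2.50, 6.42 and 7.66 FPKM with ASLAN003 and at 1.00, 1.13 and 0.35 FPKM with DMSO, so that the treated libraries were spread widely but all above the controls. DNAJC3-AS1, head to head with the gene of an endoplasmic reticulum chaperone, averaged 4.0 ± 2.54 FPKM with ASLAN003 and 0.597 ± 0.247 FPKM with DMSO, a rise of 1.54 ± 0.29 (adjusted p = 0.00469). LINC01184 (SLC12A2-DT) rose by 1.39 ± 0.25 (adjusted p = 0.00423), while LINC00539 was at 2.13, 1.25 and 1.72 FPKM with ASLAN003 and at 0.41, 0.42 and 0 FPKM with DMSO. LINC00539 met the level rule in that treated group only, so its call, like that of LINC00900 here and of LINC01215 in KG-1, is built into the choice of members and shows nothing.

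Weaker rises lost their calls when certain libraries were left out, 1 at a time. LINC01481, described in skin progenitors as PRANCR, rose by 1.35 ± 0.38 (adjusted p = 0.0344). It was not called without KG-1 ASLAN003 1, KG-1 DMSO 2, MOLM-14 ASLAN003 1 or 2 or any of the MOLM-14 DMSO libraries (adjusted p = 0.0509 to 0.106, and 0.00625 to 0.172 over all alternatives). LINC00977 rose by 1.34 ± 0.32 (adjusted p = 0.0173) with 1 treated library, at 4.12 FPKM, below the highest DMSO library, at 4.23 FPKM. It lost its call without MOLM-14 ASLAN003 1 or 2 or MOLM-14 DMSO 2 or 3 (adjusted p = 0.0516 to 0.0699, and 0.00218 to 0.118 over all alternatives). ENTPD3-AS1, at 2.88, 3.65 and 2.72 FPKM with ASLAN003 and 1.24, 0.62 and 0.44 FPKM with DMSO, rose by 1.23 ± 0.28 (adjusted p = 0.0141), but was not called without MOLM-14 DMSO 2 or 3 (adjusted p = 0.0506 to 0.0531, and 0.00647 to 0.0773 over all alternatives).

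The 4 falls in MOLM-14 were LINC00630, PRKCQ-AS1, LINC00174 and LRRC75A-AS1. LINC00630, on chromosome X, was at 0.11, 0.48 and 0.78 FPKM with ASLAN003 and at 1.46, 1.60 and 2.92 FPKM with DMSO, a fall of -1.03 ± 0.23 (adjusted p = 0.0131). LINC00174 was at 0.85, 0.35 and 0.71 FPKM with ASLAN003 and at 1.84, 2.17 and 2.66 FPKM with DMSO, a fall of -0.98 ± 0.22 (adjusted p = 0.0124). The treated libraries lay below the DMSO libraries for both. With libraries weighted by quality LINC00630 was not called (adjusted p = 0.0717, and 0.00823 to 0.105 over all alternatives).

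Of the members, 6 were called in the same direction in both lines, 4 higher and 2 lower, and 0 in opposite directions. Of all genes 33.7% were called in KG-1 and 13.0% in MOLM-14. The share of all genes called in both lines was not counted, so these counts are a description.
A further 27 rose and 25 fell in KG-1 only, and 15 rose and 2 fell in MOLM-14 only, by calls that do not by themselves show a difference between the lines. LRRC75A-AS1 (ENSG00000175061.17, chromosome 17, 16438822 to 16478678, plus strand) was the most abundant member. In KG-1 it was at 408, 347 and 421 FPKM with ASLAN003 and at 981, 913 and 966 FPKM with DMSO. In MOLM-14 it was at 785, 1201 and 1090.4 FPKM with ASLAN003 and at 1797, 2019 and 1893 FPKM with DMSO. In both lines all treated libraries lay below all DMSO libraries, and the changes were -1.28 ± 0.14 in KG-1 (adjusted p = 1.69e-05) and -0.91 ± 0.14 in MOLM-14 (adjusted p = 0.00132). PRKCQ-AS1 (ENSG00000237943.6, chromosome 10, 6580419 to 6616452, plus strand), next to the gene of protein kinase C theta, fell in both lines. It was at 3.44, 3.76 and 3.40 FPKM with ASLAN003 and at 8.90, 8.30 and 9.62 FPKM with DMSO in KG-1, and at 2.68, 5.71 and 4.97 FPKM with ASLAN003 and at 7.58, 9.55 and 12.1 FPKM with DMSO in MOLM-14. Its fall in MOLM-14 was -1.002 ± 0.22 (adjusted p = 0.0117), close to that in KG-1.

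ITGB2-AS1 (ENSG00000227039.6, chromosome 21, 44921051 to 44929678, plus strand) rose in both. In KG-1 it was at 6.29, 7.60 and 8.98 FPKM with ASLAN003 and at 1.25, 0.67 and 1.03 FPKM with DMSO, and in MOLM-14 at 5.27, 3.41 and 3.14 FPKM with ASLAN003 and at 2.39, 0.96 and 0.97 FPKM with DMSO. The MOLM-14 rise of 1.04 ± 0.26 (adjusted p = 0.0185) was not called without MOLM-14 ASLAN003 1 or MOLM-14 DMSO 2 or 3 (adjusted p = 0.056 to 0.0727, and 0.00875 to 0.121 over all alternatives). TTN-AS1 (ENSG00000237298.8), antisense to the titin gene on chromosome 2, was at 33.0, 34.3 and 36.4 FPKM with ASLAN003 and at 23.1, 22.8 and 26.3 FPKM with DMSO in KG-1. In MOLM-14 it was at 18.96, 23.5 and 19.7 FPKM with ASLAN003 and at 11.8, 11.4 and 10.9 FPKM with DMSO. The groups were separate in both lines, with rises of 0.51 ± 0.12 in KG-1 (adjusted p = 0.00487) and 0.81 ± 0.12 in MOLM-14 (adjusted p = 0.00109).

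Rises of A1BG-AS1 and LINC00847 were less secure. A1BG-AS1, antisense to the gene of a plasma glycoprotein, rose by 0.73 ± 0.23 in KG-1 (adjusted p = 0.0278) and by 1.07 ± 0.23 in MOLM-14 (adjusted p = 0.0106). The KG-1 call was lost without KG-1 ASLAN003 1 or any KG-1 DMSO library (adjusted p = 0.0521 to 0.131, and 0.0013 to 0.131 over all alternatives). Library medians set equal (adjusted p = 0.0534) and quantile normalization (adjusted p = 0.056) ended that call too. So did a pseudocount of 0.1 (adjusted p = 0.051) and the replicate number as a block (adjusted p = 0.056). LINC00847 rose by 0.45 ± 0.14 in KG-1 (adjusted p = 0.022) and by 0.52 ± 0.14 in MOLM-14 (adjusted p = 0.0254). It was not called in KG-1 without KG-1 ASLAN003 2 or 3 or KG-1 DMSO 2 or 3 (adjusted p = 0.0551 to 0.0924, and 0.00342 to 0.0924 over all alternatives). In MOLM-14 it was not called without MOLM-14 ASLAN003 2 or MOLM-14 DMSO 1 or 2 (adjusted p = 0.0546 to 0.0767, and 0.00802 to 0.206 over all alternatives).

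**Figure D2:**
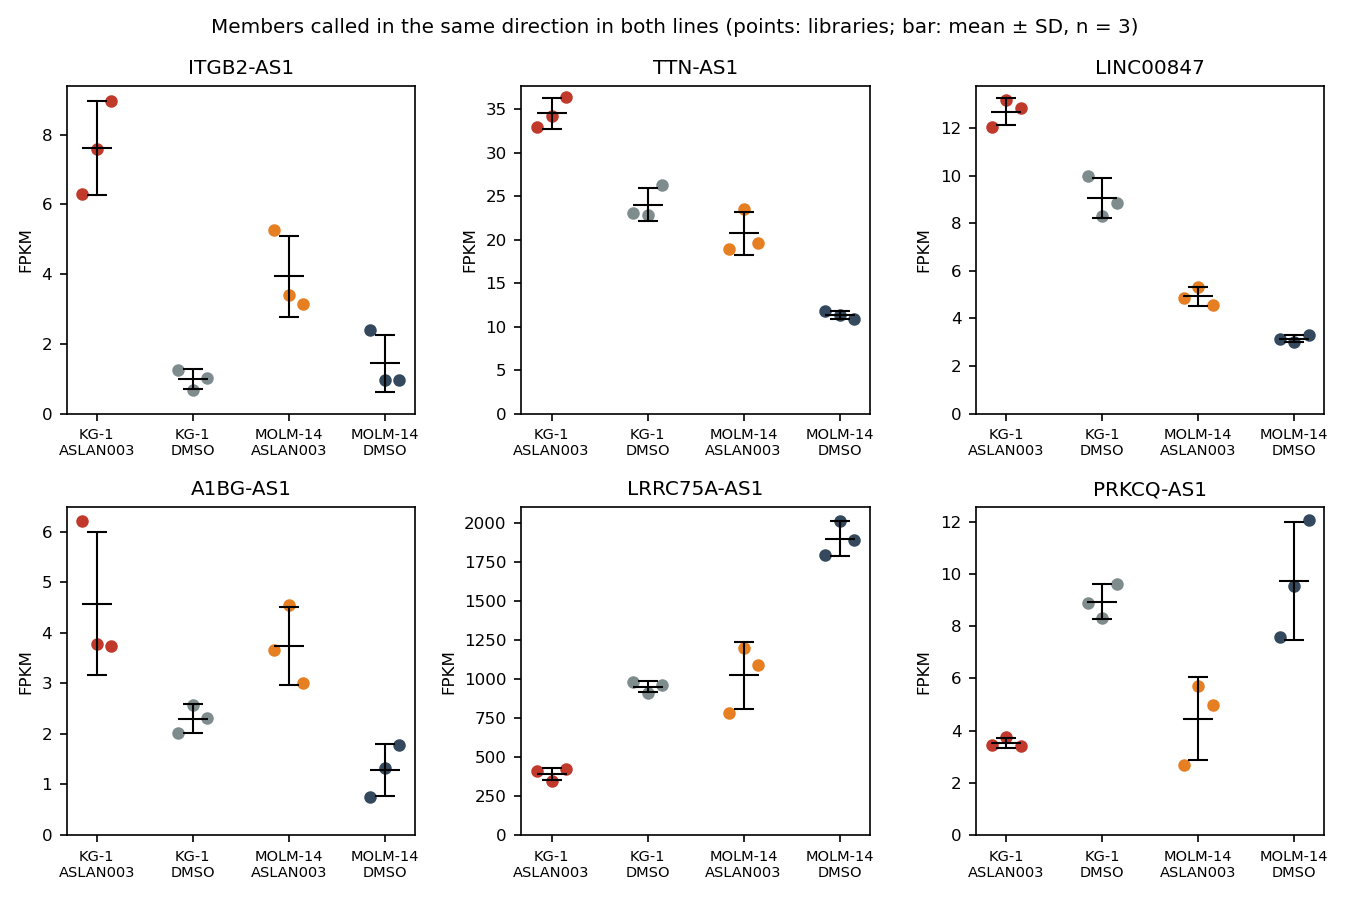
Level in FPKM (vertical axis, from 0) of the 6 members called in both lines, in the 4 groups; points are libraries, bars the mean ± SD of 3 libraries. LRRC75A-AS1 and PRKCQ-AS1 are lower with ASLAN003 than with DMSO in each line, and the other 4 members are higher.

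The difference between the lines' changes (KG-1 minus MOLM-14) was tested as an interaction term in limma. It was called for 21 of 297 members, or 7.07%, against 9.94% of all genes, with 5 higher (5.05% of all genes) and 16 lower (4.89% of all genes). Its median was -0.11 over the members and -0.03 over all genes. The largest positive difference was that of PCED1B-AS1, at 2.51 ± 0.41 (adjusted p = 0.00298). In MOLM-14 this RNA was at 20.9, 9.67 and 23.0 FPKM with ASLAN003 and at 30.7, 25.7 and 38.9 FPKM with DMSO, a change of -0.86 that was not called (adjusted p = 0.0675), while in KG-1 it rose. Among called differences FOXP4-AS1 had the largest negative one, at -2.50 ± 0.53 (adjusted p = 0.0111), with 2.28, 10.2 and 4.44 FPKM with ASLAN003 and 1.54, 1.79 and 1.31 FPKM with DMSO in MOLM-14 (change 1.20, adjusted p = 0.0514). TNRC6C-AS1 also differed, by 1.09 ± 0.21 (adjusted p = 0.00805), as it rose in KG-1 and averaged 6.10 ± 0.996 FPKM with ASLAN003 and 4.39 ± 0.314 FPKM with DMSO in MOLM-14. LINC00926 differed by -1.84 ± 0.34 (adjusted p = 0.00583): in KG-1 it averaged 42.2 ± 5.42 FPKM with ASLAN003 and 55.6 ± 7.81 FPKM with DMSO. Of the called differences, those of LINC00894 and VPS9D1-AS1 were -1.98 ± 0.45 (adjusted p = 0.0157) and -1.26 ± 0.27 (adjusted p = 0.0115), and that of RPARP-AS1 was -1.11 ± 0.24 (adjusted p = 0.0134). These 7 held under every alternative run. Without KG-1 DMSO 1, 9 differences were called, 10 without KG-1 DMSO 2, 11 without KG-1 ASLAN003 1, 12 without KG-1 DMSO 3, 13 without KG-1 ASLAN003 2 and 36 without MOLM-14 ASLAN003 1.

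**Figure D3:**
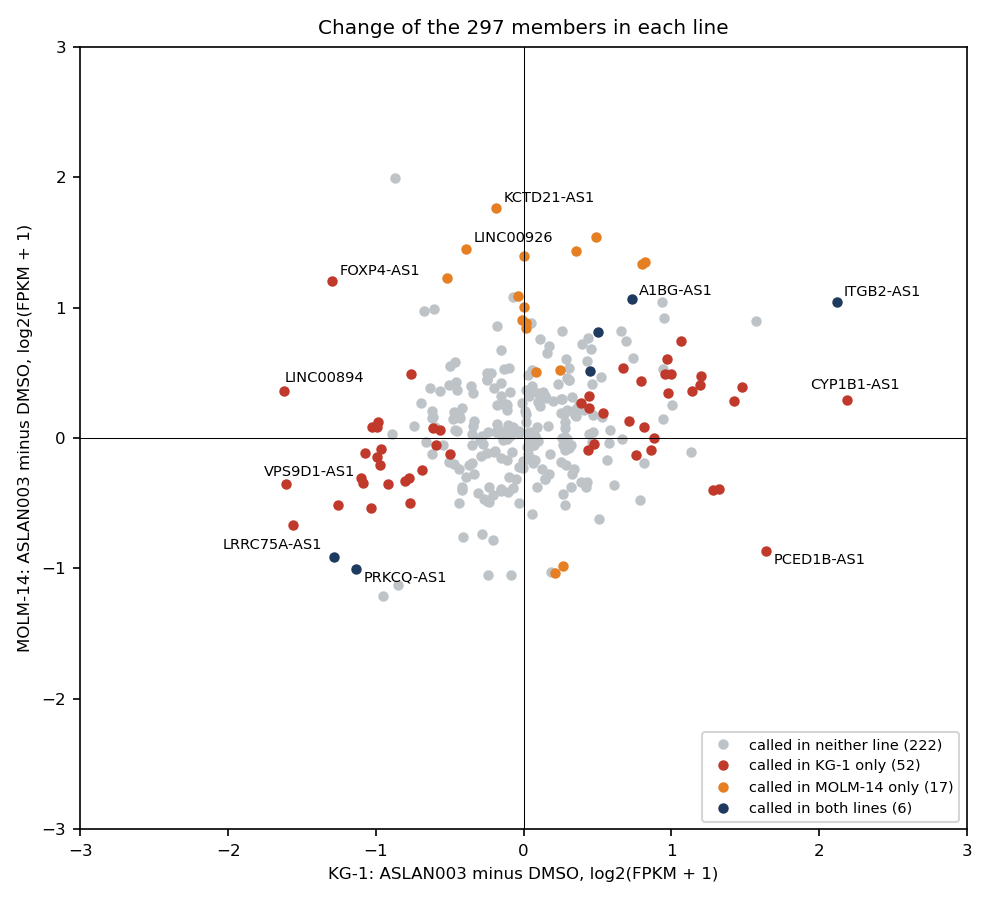
Change of each of the 297 members in KG-1 (horizontal) and MOLM-14 (vertical), both ASLAN003 minus DMSO on log2(FPKM + 1); colours give the line in which a member was called. The 52 members called in KG-1 only spread along the horizontal axis, the 17 called in MOLM-14 only along the vertical axis, and the 6 called in both lie at the lower left and upper right.

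The lines were also compared without the compound. In DMSO 128 of 297 members were called between KG-1 and MOLM-14, or 43.1%, against 49.2% of all genes, with 78 higher in KG-1 (27.1% of all genes) and 50 lower (22.1% of all genes). The lines did not overlap for 157 members (63.3% of all genes). Of the members, 12 met the level rule through MOLM-14 only, 11 through KG-1 only and 4 through 1 group only, so their difference is built in and their count shows nothing. Of the other 270 members 105 were called, or 38.9%, with 66 higher and 39 lower in KG-1. Of members at 10 FPKM or more 66.7% were called and of those below 38.2%, against 52.6% and 44.5% of all genes.

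Several RNAs were present in KG-1 and near 0 in MOLM-14, and since they met the level rule in KG-1 only, their levels are given with no test. LINC00461, the host of microRNA 9-2 on chromosome 5 and known from neural cells, was at 16.9, 15.2 and 13.1 FPKM in KG-1 with ASLAN003 and at 11.7, 13.4 and 11.98 FPKM in KG-1 with DMSO, and was listed at 0 in all 6 MOLM-14 libraries. TP73-AS1, at 13.8, 14.6 and 11.9 FPKM in KG-1 with DMSO, was at 0.02 FPKM in each MOLM-14 library with DMSO. LOXL1-AS1 averaged 11.97 ± 1.73 FPKM in KG-1 with DMSO and reached at most 0.03 FPKM in MOLM-14. LINC01296, a processed pseudogene transcript in GENCODE that RefSeq names DUXAP9, averaged 9.46 ± 3.31 FPKM in KG-1 with DMSO, and LINC00960 averaged 7.43 ± 1.20 FPKM there, and both were at 0 FPKM in each MOLM-14 library with DMSO. None of these 5 was called with ASLAN003 in either line.

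GATA2-AS1, head to head with the gene of the stem cell transcription factor GATA2, was present in both lines at different levels. It was at 41.3, 38.8 and 34.8 FPKM in KG-1 with DMSO and at 9.24, 5.04 and 5.47 FPKM in MOLM-14 with DMSO, a difference of 2.41 ± 0.21 (adjusted p = 9.13e-07). LINC01006 (2.25 ± 0.19), LINC00888 (1.93 ± 0.21), LINC00884 (1.88 ± 0.24) and FOXP4-AS1 (1.85 ± 0.37) completed the 10 members highest in KG-1.

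On the MOLM-14 side LINC01388 stood first. It was at 0.45, 0 and 0 FPKM in KG-1 with DMSO and at 27.4, 28.3 and 24.7 FPKM in MOLM-14 with DMSO, and met the level rule in MOLM-14 only, as did TRHDE-AS1, BARX1-AS1, LINC00431 and MBNL1-AS1, so their levels are given with no test of the lines. Of members that met it in both lines PCED1B-AS1 came first at -4.16 ± 0.29 (adjusted p = 1.34e-07), so that the RNA with the third-largest rise in KG-1 stayed far below the MOLM-14 level after it. TRHDE-AS1 was at 0, 0 and 0 FPKM in KG-1 with DMSO and at 4.44, 5.12 and 5.42 FPKM in MOLM-14 with DMSO, where ASLAN003 libraries held 9.12, 11.1 and 9.83 FPKM, a rise of 0.88 ± 0.16 (adjusted p = 0.00477) that was lost with a pseudocount of 0.1 (adjusted p = 0.0876) and with MOLM-14 fitted alone (adjusted p = 0.0507, and 0.000919 to 0.0876 over all alternatives). BARX1-AS1, LINC00431 and MBNL1-AS1 were at most 0.24 FPKM in every KG-1 library and averaged 3.00 ± 0.691, 3.34 ± 1.84 and 2.93 ± 0.403 FPKM in MOLM-14 with DMSO. PSMD5-AS1 (-2.41 ± 0.18), LINC00599, the host of microRNA 124-1 (-2.15 ± 0.30), PRR34-AS1 (-1.97 ± 0.40) and MSC-AS1 (-1.74 ± 0.25) were lower in KG-1 but present in both lines.

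**Figure D4:**
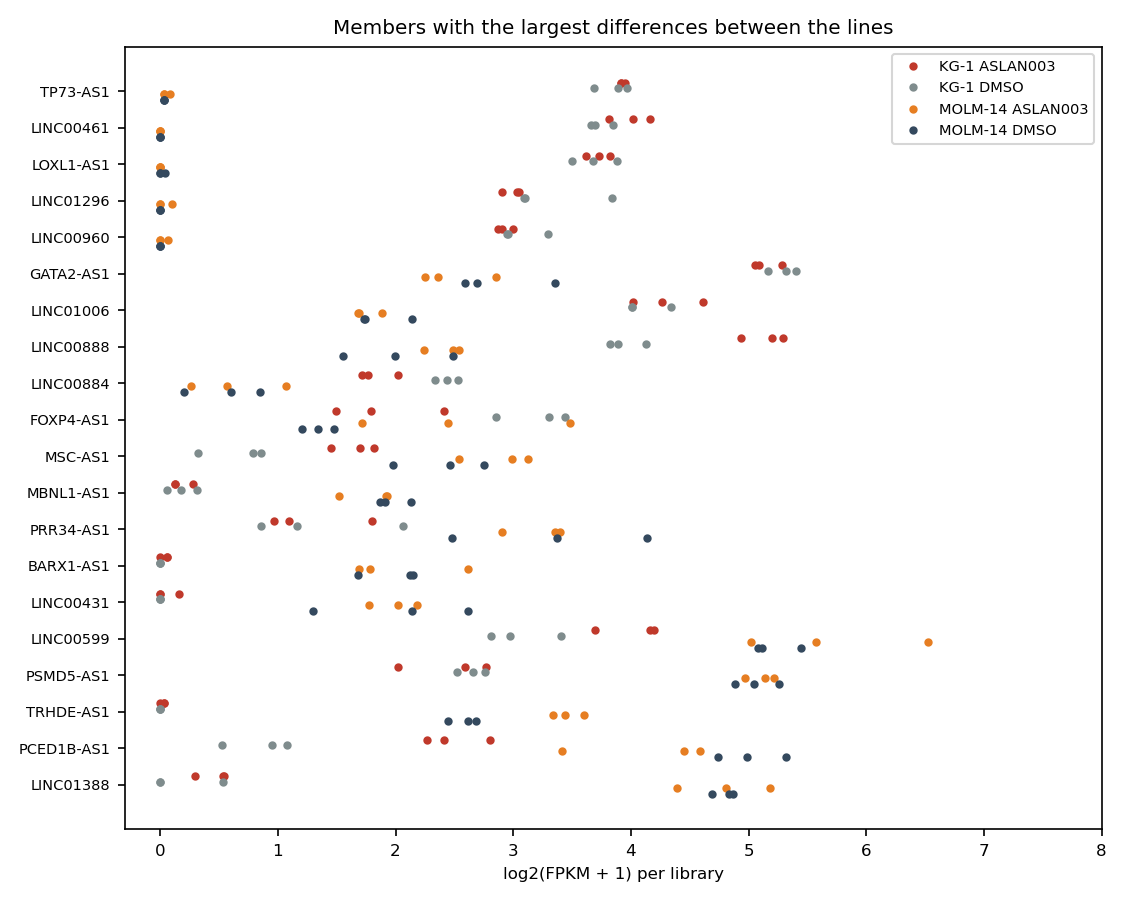
Level per library on log2(FPKM + 1) (horizontal axis) of the 20 members with the largest called differences between the lines, in KG-1 (ASLAN003 red, DMSO grey) and MOLM-14 (ASLAN003 orange, DMSO dark blue). Of the 20, 10 met the level rule in 1 line only. The upper 10 are higher in KG-1, several with MOLM-14 libraries at 0, and the lower 10 are higher in MOLM-14.

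Each antisense member was set beside the gene it is named after. Of 212 antisense members, 184 had a tested partner, 26 a partner that is not listed and 2 a partner with several rows. By GENCODE 111 pairs lay head to head, 76 overlapping and 35 apart, 37 were tail to tail and overlapping, 25 members started inside the partner, and 9 held the partner's start. In 83 pairs the start sites lay within 1000 bases. In KG-1 33 members and 66 partners of these 184 pairs were called, where 33.7% of all genes were called. Both genes were called in 16 pairs, 13 in the same and 3 in opposite directions. Across all 184 pairs the 2 changes correlated with a Pearson r of 0.288 (Spearman 0.235), and across the 83 close pairs with 0.518 (Spearman 0.409). In MOLM-14 the same values were 0.091 (Spearman 0.069) and 0.040 (Spearman 0.094). There 8 members and 30 partners were called, beside 13.0% of all genes, and 2 pairs had both genes called. These correlations run across genes measured in the same libraries, and they and the counts of pairs are given as a description.

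Of the 13 pairs that moved together in KG-1, 7 rose and 6 fell. Among the rising pairs, ITGB2 itself rose with ITGB2-AS1, at 759 ± 191 FPKM with ASLAN003 and 234 ± 33.9 FPKM with DMSO (1.68 ± 0.16, adjusted p = 9.35e-06). CYP1B1 rose by 1.81 ± 0.31 (adjusted p = 0.000745) and SH3BP5, whose product binds the kinase BTK, by 2.17 ± 0.21 (adjusted p = 1.01e-05). ZNF528 averaged 5.39 ± 0.685 FPKM with ASLAN003 and 2.73 ± 0.647 FPKM with DMSO and rose by 0.79 ± 0.22 (adjusted p = 0.0132), but not without KG-1 ASLAN003 1 or KG-1 DMSO 3 (adjusted p = 0.0586 to 0.0625, and 0.000749 to 0.0625 over all alternatives). CARD8 rose by 0.69 ± 0.11 (adjusted p = 0.000294). PRR7, by 0.54 ± 0.18 (adjusted p = 0.0344), was not called without any KG-1 ASLAN003 library or without KG-1 DMSO 1 or 3 (adjusted p = 0.064 to 0.124, and 0.00835 to 0.124 over all alternatives).

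Of the falling pairs, TMEM147-AS1 was at 4.20, 4.03 and 4.18 FPKM with ASLAN003 and at 10.7, 9.59 and 7.26 FPKM with DMSO in KG-1, a change of -0.97 ± 0.20 (adjusted p = 0.00236), with separate groups. TMEM147, a membrane protein gene head to head with it, changed by -1.11 ± 0.15 (adjusted p = 0.000104). MIF-AS1 was at 2.33, 2.10 and 1.81 FPKM with ASLAN003 and at 5.89, 5.68 and 4.40 FPKM with DMSO, a change of -1.03 ± 0.25 (adjusted p = 0.00672). MIF, the gene of a cytokine, tail to tail and overlapping with it, averaged 338 ± 48.8 FPKM with ASLAN003 and 866 ± 46.1 FPKM with DMSO and changed by -1.36 ± 0.13 (adjusted p = 7.49e-06). HNRNPU-AS1, whose symbol RefSeq lists as a synonym of HNRNPU, so that reads may be shared, changed by -0.77 ± 0.19 (adjusted p = 0.00652) and HNRNPU, the gene of a nuclear RNA-binding protein, by -0.45 ± 0.10 (adjusted p = 0.00509). These pairs kept both calls in KG-1 under every alternative.

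In the remaining falling pairs and the seventh rising pair, at least 1 gene lost its call when a library was left out. TFAP2A, the partner of TFAP2A-AS1, changed by -0.73 ± 0.24 (adjusted p = 0.0318) and was not called without KG-1 ASLAN003 1 or 2 or KG-1 DMSO 1 or 2 (adjusted p = 0.0749 to 0.138, and 0.000379 to 0.138 over all alternatives). H1FX-AS1 changed by -1.02 ± 0.28 (adjusted p = 0.0133), which was lost without KG-1 ASLAN003 1 (adjusted p = 0.0516) and with a pseudocount of 0.1 (adjusted p = 0.141, and 0.000172 to 0.141 over all alternatives). H1FX, a linker histone gene, changed by -0.71 ± 0.16 (adjusted p = 0.00433). KTN1-AS1 (-0.92 ± 0.30, adjusted p = 0.0315) was not called without any 1 of the 6 KG-1 libraries (adjusted p = 0.059 to 0.0885, and 0.000333 to 0.0885 over all alternatives), and KTN1 changed by -0.36 ± 0.10 (adjusted p = 0.0149). RASSF1-AS1 rose by 0.80 ± 0.26 (adjusted p = 0.0293), but not without KG-1 ASLAN003 1 or 3 or KG-1 DMSO 2 or 3 (adjusted p = 0.0694 to 0.125, and 0.00483 to 0.125 over all alternatives), and RASSF1, a tumour suppressor gene, rose by 0.42 ± 0.13 (adjusted p = 0.0223). The call of KTN1 was lost without KG-1 ASLAN003 1 or KG-1 DMSO 3 (adjusted p = 0.0544 to 0.0577, and 0.000859 to 0.139 over all alternatives) and that of RASSF1 without KG-1 ASLAN003 3 or KG-1 DMSO 1 or 2 (adjusted p = 0.0518 to 0.0916, and 0.00167 to 0.0916 over all alternatives).

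Promoter sequences of the RefSeq table (GRCh38.p14) show how close such starts can be. Lower case gives the 250 bases before the start of the antisense RNA, and capitals the 50 bases from its start on, 5′ to 3′ on its own strand. ZNF528-AS1 (chr19:52397708-52398007, minus strand) is shown because the start of ZNF528 on the other strand lies in the same window, at base 159. CARD8-AS1 (chr19:48255425-48255724, plus strand) starts within the CARD8 gene, 271 bases from its start, and is shown because both genes rose.
ZNF528-AS1: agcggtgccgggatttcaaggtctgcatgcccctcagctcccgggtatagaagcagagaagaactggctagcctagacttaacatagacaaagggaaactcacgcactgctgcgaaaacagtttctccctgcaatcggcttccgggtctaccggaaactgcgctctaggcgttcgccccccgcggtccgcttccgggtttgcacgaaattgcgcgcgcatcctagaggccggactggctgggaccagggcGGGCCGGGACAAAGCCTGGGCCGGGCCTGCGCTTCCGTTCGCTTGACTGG
CARD8-AS1: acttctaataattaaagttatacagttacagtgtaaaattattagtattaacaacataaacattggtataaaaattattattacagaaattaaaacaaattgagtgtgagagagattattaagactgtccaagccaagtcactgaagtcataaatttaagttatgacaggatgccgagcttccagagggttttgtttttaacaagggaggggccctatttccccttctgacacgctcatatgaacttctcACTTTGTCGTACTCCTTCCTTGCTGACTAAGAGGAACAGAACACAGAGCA
The ZNF528-AS1 window held 61.7% G or C and 26 CG dinucleotides, and the CARD8-AS1 window 35.0% and 3. Over the 227 member promoters in that table the median was 64.3% and 24 CG dinucleotides, against 58.3% and 14 over all 27305 promoters. TATAAA, searched on both strands, lay in the CARD8-AS1 window at base 67 and in 5.29% of member promoters, against 12% of all promoters. The other letters searched were TTGCNNAA (C/EBP, 7.49% of member and 10.6% of all promoters), GAGGAAGT (PU.1, 3.08% and 2.54%), TGANTCA (AP-1, 6.61% and 7.76%), CACGTG (E-box, 9.69% and 7.43%) and TGACGTCA (CRE, 3.08% and 1.98%), and neither window held any of them.

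The opposite pairs in KG-1 were VPS9D1-AS1, PSMA3-AS1 and BZRAP1-AS1, the last named here after its values were seen. VPS9D1 averaged 12.02 ± 1.46 FPKM with ASLAN003 and 3.13 ± 0.592 FPKM with DMSO and rose by 1.66 ± 0.29 (adjusted p = 0.000802), while its antisense RNA fell by 1.61. The antisense RNA lies wholly inside VPS9D1, and its start is 9130 bases from the partner's. PSMA3-AS1 rose by 0.45 ± 0.16 (adjusted p = 0.046), and PSMA3, a proteasome subunit gene, fell by 0.41 ± 0.11 (adjusted p = 0.0145). That rise was not called without KG-1 ASLAN003 1 or 2, KG-1 DMSO 1 or 2 or any MOLM-14 DMSO library (adjusted p = 0.0542 to 0.176, and 0.00197 to 0.176 over all alternatives), nor the fall without KG-1 DMSO 2 (adjusted p = 0.0519, and 0.000295 to 0.076 over all alternatives). PSMA3-AS1 was also not called with library medians set equal (adjusted p = 0.117) or quantile normalization (adjusted p = 0.11). PSMA3 was not called with FPKM recomputed (adjusted p = 0.076). BZRAP1 fell by 2.66 ± 0.22 (adjusted p = 3.54e-06), and BZRAP1-AS1 rose by 0.44 ± 0.15 (adjusted p = 0.041). The rise was lost without KG-1 ASLAN003 2 or 3, any KG-1 DMSO library or MOLM-14 DMSO 1 or 2 (adjusted p = 0.0517 to 0.121, and 0.00744 to 0.144 over all alternatives). Library medians set equal (adjusted p = 0.144) and quantile normalization (adjusted p = 0.136) ended it too.

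In MOLM-14 the pairs with both genes called were SATB1 and PRKCQ. SATB1-AS1 was at 29.5, 26.9 and 22.1 FPKM with ASLAN003 and at 13.9, 13.8 and 10.1 FPKM with DMSO and rose by 1.00 ± 0.19 (adjusted p = 0.005), with separate groups. SATB1, a chromatin organizer gene read the other way from a start 564 bases off in GENCODE, averaged 60.8 ± 3.14 FPKM with ASLAN003 and 86.0 ± 5.80 FPKM with DMSO and fell by 0.49 ± 0.084 (adjusted p = 0.00301, and 0.0624 with MOLM-14 fitted alone). In KG-1 SATB1 fell by 0.61 ± 0.084 (adjusted p = 0.000134), and SATB1-AS1 averaged 28.7 ± 8.60 FPKM with ASLAN003 and 27.9 ± 1.20 FPKM with DMSO. TBC1D5, also on the other strand, starts nearer in GENCODE, 207 bases upstream of SATB1-AS1. It was not called in MOLM-14 (adjusted p = 0.969) and rose by 0.43 in KG-1 (adjusted p = 0.0149). PRKCQ, 118 bases from PRKCQ-AS1 and head to head with it, averaged 1.26 ± 0.170 FPKM with ASLAN003 and 2.45 ± 0.395 FPKM with DMSO. It fell by 0.60 ± 0.18 (adjusted p = 0.0405), a call that held only without KG-1 ASLAN003 3, MOLM-14 ASLAN003 2 or MOLM-14 DMSO 3 among the omissions (adjusted p = 0.0124 to 0.202 over all alternatives). The start windows of antisense RNAs that moved against their partners, with no call lost when a library was left out, are shown in the same layout: SATB1-AS1 (chr3:18444987-18445286, plus strand) and VPS9D1-AS1 (chr16:89711606-89711905, plus strand).
SATB1-AS1: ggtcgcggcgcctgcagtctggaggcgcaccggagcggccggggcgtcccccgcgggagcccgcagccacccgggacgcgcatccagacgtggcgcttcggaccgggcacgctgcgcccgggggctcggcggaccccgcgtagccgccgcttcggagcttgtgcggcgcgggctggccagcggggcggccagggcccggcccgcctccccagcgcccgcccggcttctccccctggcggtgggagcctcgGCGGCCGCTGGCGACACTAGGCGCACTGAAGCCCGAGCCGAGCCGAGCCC
VPS9D1-AS1: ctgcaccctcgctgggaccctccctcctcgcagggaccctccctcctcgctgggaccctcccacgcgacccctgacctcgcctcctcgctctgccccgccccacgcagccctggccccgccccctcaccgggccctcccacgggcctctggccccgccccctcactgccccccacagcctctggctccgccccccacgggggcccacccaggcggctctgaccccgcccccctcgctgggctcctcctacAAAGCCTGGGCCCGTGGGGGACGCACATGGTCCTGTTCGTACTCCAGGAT
The SATB1-AS1 window held 81.0% G or C and 47 CG dinucleotides and the VPS9D1-AS1 window 75.7% and 21, and none of the 6 letter patterns above was in either.

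**Figure D5:**
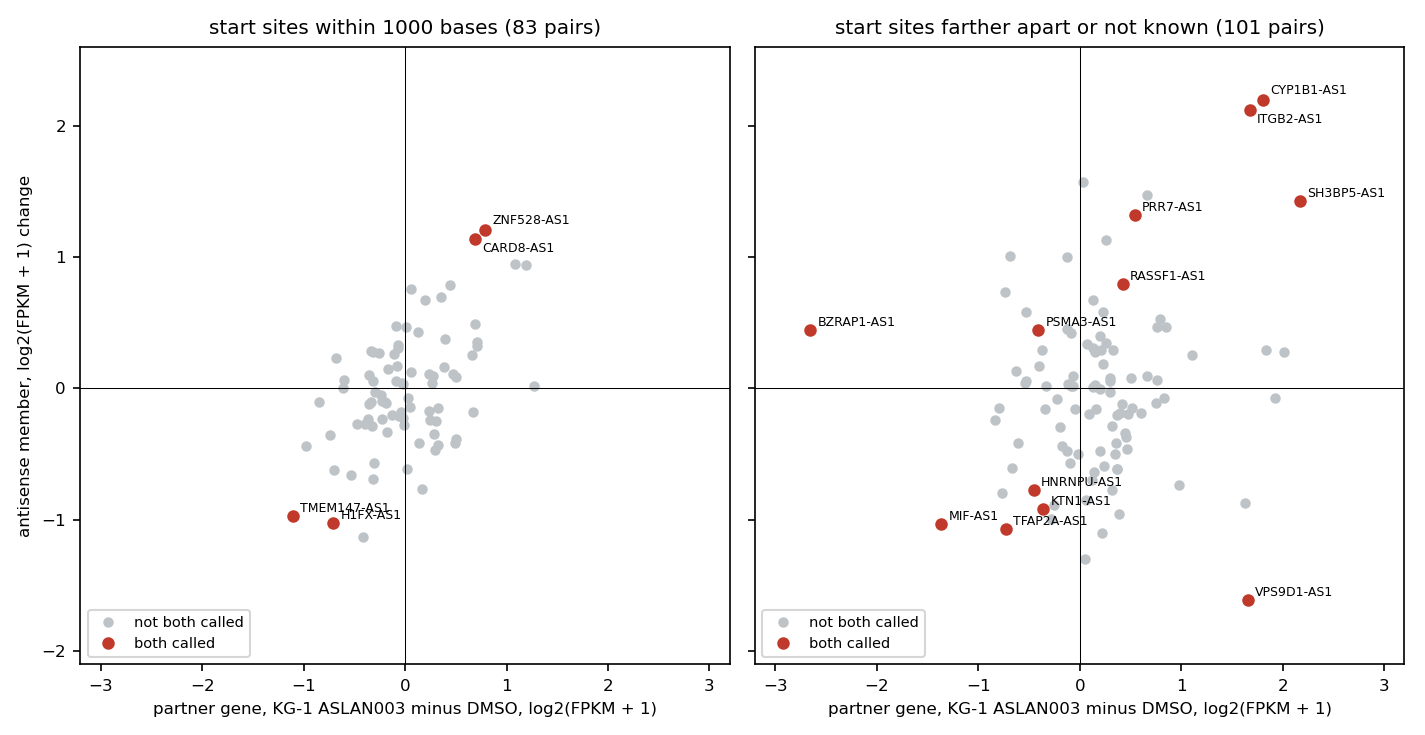
Change in KG-1 (ASLAN003 minus DMSO, log2(FPKM + 1)) of each antisense member (vertical) against that of the gene it is named after (horizontal), for pairs with start sites within 1000 bases (left) and the other pairs (right); red points have both genes called. The 4 red pairs on the left lie at the lower left and upper right, and VPS9D1-AS1, BZRAP1-AS1 and PSMA3-AS1 on the right moved against their partners.

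Between the lines, 41 pairs had both genes called in DMSO, 31 in the same direction and 10 in opposite directions, and the correlation across the 83 close pairs was 0.522 (Spearman 0.502). Of the 184 pairs, 70 members and 97 partners were called there, beside 49.2% of all genes. These pairs include members that met the level rule in 1 line only, such as BARX1-AS1, whose difference is built into the choice. The values without such members were not computed, so the counts and the correlation are a description only. BARX1 averaged 0.0833 ± 0.0802 FPKM in KG-1 with DMSO and 146 ± 13.2 FPKM in MOLM-14 with DMSO, beside the levels of BARX1-AS1 given above, whose start lies 225 bases from it. CEBPA-AS1 and CEBPA, the gene of a granulocyte transcription factor 293 bases away, went opposite ways: CEBPA-AS1 averaged 7.95 ± 0.354 FPKM in KG-1 and 3.07 ± 0.194 FPKM in MOLM-14, and CEBPA 155 ± 8.68 FPKM in KG-1 and 301 ± 16.8 FPKM in MOLM-14, all with DMSO. TP73, of which TP73-AS1 overlaps the tail, was lower in KG-1 by 1.30 ± 0.16 (adjusted p = 2.54e-05).

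Of 15 known RNAs, all tested, 3 rose and 2 fell in KG-1, near the 33.7% of all genes called there, and 1 rose and 0 fell in MOLM-14 (13.0% of all genes called), with medians of 0.02 and 0.05. LINC00657, the RNA NORAD that binds Pumilio proteins, was at 101, 98.5 and 110 FPKM in KG-1 with ASLAN003 and at 68.5, 83.8 and 83.8 FPKM in KG-1 with DMSO. Its rise of 0.39 ± 0.12 (adjusted p = 0.0195) was not called without KG-1 ASLAN003 3 or KG-1 DMSO 1 (adjusted p = 0.0671 to 0.0992), nor with library medians set equal (adjusted p = 0.106) or quantile normalization (adjusted p = 0.0569, and 0.00237 to 0.106 over all alternatives). LINC00467 averaged 1.09 ± 0.305 FPKM with ASLAN003 and 0.267 ± 0.1 FPKM with DMSO in KG-1, a rise of 0.71 ± 0.20 (adjusted p = 0.0143) that was lost without KG-1 ASLAN003 1 or 3 or KG-1 DMSO 2 (adjusted p = 0.0514 to 0.0529, and 0.0017 to 0.0556 over all alternatives). Quantile normalization ended that call too (adjusted p = 0.0556). FGD5-AS1 rose in MOLM-14, at 36.4, 34.8 and 38.5 FPKM with ASLAN003 and 23.4, 25.2 and 26.8 FPKM with DMSO (0.53 ± 0.10, adjusted p = 0.00654). OIP5-AS1, known as Cyrano in zebrafish, LINC00152 (CYTOR), LINC01578 (CHASERR, beside CHD2) and THAP9-AS1 were not called in either line, with changes of -0.38 to 0.31.

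Of a fixed list of 7 genes that encode short proteins, 5 were tested. None of these 5 was called by limma with ASLAN003 in either line, while 3 in KG-1 and 2 in MOLM-14 had an unadjusted p under 0.05. LINC00998, which encodes SMIM30, averaged 101 ± 6.28 FPKM with ASLAN003 and 83.9 ± 4.85 FPKM with DMSO in KG-1. LINC01420, which encodes the decapping complex microprotein NBDY, averaged 18.6 ± 1.25 FPKM with ASLAN003 and 11.5 ± 1.72 FPKM with DMSO in KG-1 and 9.95 ± 5.34 FPKM with ASLAN003 and 4.74 ± 0.680 FPKM with DMSO in MOLM-14. Its changes were 0.66 in KG-1 (adjusted p = 0.0795) and 0.82 in MOLM-14 (adjusted p = 0.0641). Between the lines in DMSO, 3 of the 5 were higher in KG-1 and 2 lower, beside 49.2% of all genes called. Matched by symbol or synonym, 12 members had a protein-coding RefSeq gene, but for HNRNPU-AS1 and TNRC6C-AS1 that gene was HNRNPU or TMC6, under another symbol. No other member of the 12 was called with ASLAN003 in either line. Among those others only MMP24-AS1 (MMP24OS) had a called difference between the lines (-0.70, adjusted p = 0.0472), which was lost without some libraries.

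Of 23 RNAs of the HOX cluster and blood cells, 8 were tested, 2 rose in KG-1 (33.7% of all genes called) and 3 in MOLM-14 (13.0% of all genes called), and none fell. The rise not yet given was that of LINC00426 in KG-1, at 3.73, 3.45 and 1.79 FPKM with ASLAN003 and 1.20, 1.15 and 1.06 FPKM with DMSO (0.86 ± 0.21, adjusted p = 0.00769), which was lost with a pseudocount of 0.1 (adjusted p = 0.067, and 0.000109 to 0.067 over all alternatives). CEBPA-AS1 changed by 0.54 in MOLM-14 without a call (adjusted p = 0.0531). The list's median change was -0.02 in KG-1 and 0.46 in MOLM-14, and its summed level was 95.0 to 118 FPKM with ASLAN003 and 108 to 119 FPKM with DMSO in KG-1, and 77.9 to 141 FPKM with ASLAN003 and 40.6 to 57.0 FPKM with DMSO in MOLM-14. HOXB-AS3 and GAS6-AS1 stayed below the level filter, and the other 13 were not listed.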

How the data were processed

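Total RNA libraries of KG-1 and MOLM-14 cells were sequenced by the authors, with 3 libraries in each of 4 groups; the kit keeps strand. Per the submitters' processing notes, RSEM 1.2.25, the aligner STAR 2.4.2a and bcl2fastq 2.17.1.14 were used with builds hg38 and GRCh38; the annotation used is not stated there. Values were deposited on a log2 scale, log2(FPKM + 1), of 13881 genes, set by the authors; FPKM was recovered from them and rounded to 0.01. Whole read counts are not in this table. Depth was estimated from low values, of which 78.2% to 86.9% (of 51 to 72 per library) lay within 0.15 of whole fragments, and limits the precision of low members.

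Genes at 1 FPKM or more in at least 3 libraries (13353) were tested with limma 3.58.1 (R 4.3.3, trended and robust empirical Bayes, pseudocount 1, two-sided, Benjamini-Hochberg adjustment over all genes) in 1 fit over the 4 groups, with contrasts for the compound in each line, their difference, and the lines in DMSO. Tables were handled in Python 3.11.15. The procedure was tested on simulated data. Positions came from GENCODE 29 (13784 of 13881 identifiers found, 99.3%), and RefSeq names were matched for 295 of 297 members, 224 by symbol and 71 by synonym. For these, 227 GRCh38.p14 promoters were found. Named members are the 10 largest called rises and falls per comparison, the 12 most abundant, list members, members called in both lines with a change of at least 1 in each, the 6 antisense members per line with the largest change where both genes of the pair were called, and the partners of all these. Other members named in the text were chosen after their values were seen. Members and lists were chosen with earlier results of these data known. Alternatives were another pseudocount, other filters, 3 scalings, another variance model, weighted libraries, each line alone, a replicate block and each library left out.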

Additional observations from a re-analysis of the deposited data

Results flagged for a closer look

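For 21 members the change with ASLAN003 in KG-1 minus that in MOLM-14 passed the limma interaction test (adjusted p under 0.05, log2 scale), which is why they are listed here. The difference was negative for 16 of them. It was -2.50 for FOXP4-AS1, -1.98 for LINC00894, -1.95 for KCTD21-AS1, -1.84 for LINC00926 and -1.74 for ENTPD3-AS1. It was -1.39 for LINC01184, -1.26 for RAB11B-AS1, -1.26 for VPS9D1-AS1, -1.12 for LINC00539, -1.11 for RPARP-AS1 and -1.05 for LINC00342. The smaller ones were -0.998 for SATB1-AS1, -0.96 for TFAP2A-AS1, -0.86 for TRHDE-AS1, -0.74 for EPB41L4A-AS1 and -0.70 for MMP24-AS1. It was positive for 5, at 1.09 for TNRC6C-AS1, 1.25 for LINC00630, 1.25 for LINC00174, 1.69 for LINC01268 and 2.51 for PCED1B-AS1. Of these, 7 kept the call under every alternative run, namely FOXP4-AS1, LINC00894, LINC00926, VPS9D1-AS1, RPARP-AS1, TNRC6C-AS1 and PCED1B-AS1. LINC01268 lost it with a pseudocount of 0.1 (adjusted p = 0.0923) and under no other alternative. The other 13 lost it without at least 1 library, ENTPD3-AS1 and RAB11B-AS1 under 1 alternative each, without KG-1 DMSO 1 (adjusted p = 0.0529 and 0.053). LINC00539 met the level rule in MOLM-14 with ASLAN003 only and TRHDE-AS1 in MOLM-14 only, so their differences are partly built into the choice of members.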

How the results depend on the processing

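Of the 230 calls of members in the 4 comparisons, 0 changed direction under any alternative. In KG-1 58 members were called, 104 with the line fitted alone, 119 with weighted libraries and 37 to 71 with 1 library left out. In MOLM-14 23 were called, 5 with the line fitted alone, 15 with weighted libraries, 15 with a 5 FPKM filter (142 members tested) and 15 to 33 with 1 library left out. The difference between lines was called for 21, 38 with weighted libraries and 9 to 36 with 1 library left out. Between the lines in DMSO 128 were called, 79 with the 5 FPKM filter and 108 to 140 with 1 library left out. Where fewer genes or samples were used, that is part of the alternative's construction; otherwise the cause was not tested. The 3365 values under alternatives mixed calls of single genes, counts of called members, medians of changes and sizes of the group. Of these, 3045 were labelled unchanged, and 307 weaker, as a lost call or a clearly lower count. A further 4 were clearly higher counts of called members, and 9 were medians or group sizes that moved. With the replicate number as a block, 59, 22, 16 and 130 members were called in these comparisons. Samples with the same number deviated together little (r = 0.041, 0.020 and 0.032 in KG-1, and 0.10, -0.0019 and 0.040 in MOLM-14). Unlike numbers gave -0.083 to 0.049 over both lines, and a weak effect shared by number was not tested. Depth limits members near 1 FPKM, where few fragments stand behind a value.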

Other observations

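Of 30 other long noncoding RNAs on a fixed list, 15 were tested, and 1 rose and 6 fell in KG-1 with ASLAN003, while 1 fell in MOLM-14, where 33.7% of all genes were called in KG-1 and 13.0% in MOLM-14. Of the KG-1 falls, those of DLEU1, DLEU2 and CRNDE were each lost without KG-1 ASLAN003 1 or 3 or KG-1 DMSO 2 or 3, and that of DLEU1 also without KG-1 ASLAN003 2, KG-1 DMSO 1 or MOLM-14 DMSO 2 (adjusted p = 0.0502 to 0.155). The riser, HOTAIRM1 of the HOXA cluster, was lost without KG-1 ASLAN003 2 or 3 or KG-1 DMSO 3 (adjusted p = 0.075 to 0.127, and 0.0148 to 0.127 over all alternatives). Library medians set equal (adjusted p = 0.0669) and quantile normalization (adjusted p = 0.0577) ended its call too. MEG3, an imprinted RNA, was at 118, 118 and 159 FPKM in KG-1 with ASLAN003 and at 294, 317 and 275 FPKM in KG-1 with DMSO, and at most 0.02 FPKM in MOLM-14. It fell by 1.17 on the log2 scale (limma adjusted p = 3.51e-05). The small nucleolar RNA host ZFAS1 was at 230, 218 and 185 FPKM in KG-1 with ASLAN003 and at 392.2, 333 and 344 FPKM in KG-1 with DMSO, and fell by 0.76 (adjusted p = 0.00498). DANCR, another such host, fell in both lines, by 1.19 in KG-1 (adjusted p = 0.00255) and by 1.05 in MOLM-14 (adjusted p = 0.0152). The MOLM-14 value was -0.66 without MOLM-14 ASLAN003 1, and the call was lost without MOLM-14 DMSO 2 (adjusted p = 0.0526, and 0.00564 to 0.11 over all alternatives).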
